A study of Mus musculus with 20 samples.

Results

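Expression of 10 genes of protein folding in the endoplasmic reticulum (ER) and of the unfolded protein response was followed in mouse epidermis and pancreas with and without chronic inflammation. The genes were Hspa5, Hsp90b1, Calr, Dnajc3, Pdia2, Pdia3, Pdia4, Xbp1, Atf4 and Ddit3. They were chosen as a named list and matched by symbol to the Ensembl identifiers of the gene count table, which holds 55471 genes, and all 10 were found. The study asked which signals chronic inflammation switches on in both tissues. All mice were wild-type (WT). Epidermis was isolated from back skin that had received acetone alone (acetone mixed with olive oil) or DNFB, a contact allergen, at 0.25% in the same vehicle, 3 times per week for 22 days. The skin protocol used male and female mice aged 4 to 6 weeks, sensitized on the abdomen with 0.5% DNFB and then 0.25% DNFB. Pancreas came from mice that had received PBS alone or caerulein, a cholecystokinin analog that overstimulates the acinar cells, at 50 μg/kg in hourly intraperitoneal injections, 6 per day on 3 days per week for 3 weeks. The age of these mice is not given in the sources used here. Each of the 4 groups held 5 libraries, numbered as in the labels.

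The ER folds proteins on their way to the cell surface or out of the cell, and acinar cells of the pancreas, which secrete digestive enzymes, carry an unusually dense ER. Unfolded protein in the ER is sensed by IRE1, PERK and ATF6. IRE1 splices the messenger of Xbp1, PERK slows translation while favoring that of Atf4, and Atf4 in turn induces Ddit3, which encodes the death-associated factor CHOP. Active ATF6 and XBP1 bind ER stress response elements (ERSE) in the promoters of chaperone genes. A gene count cannot separate the spliced from the unspliced Xbp1 messenger and does not report on the translation of Atf4.

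Sequence shared by some of the promoters was read from RefSeq (GRCm38.p6), in windows from 250 bases before to 50 after each start, because the ERSE is the best known element common to ER chaperone genes. The motif searched was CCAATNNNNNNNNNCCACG on both strands, and it was present in the window of 4 of the 10 genes, namely Hspa5, Hsp90b1, Calr and Dnajc3. Among all windows, 39 of 32851 (0.119%) held it. The matches are printed 5′ to 3′ on the strand of the gene with 5 bases on each side. Capitals mark the paired half-sites, CCAAT with CCACG or, in reverse, CGTGG with ATTGG.
Hspa5, chr2:34772020-34772048, + strand, 65 bases upstream of the start: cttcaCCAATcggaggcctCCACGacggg
Hsp90b1, chr10:86705633-86705661, − strand, 212 bases upstream: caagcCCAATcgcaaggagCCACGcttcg
Hsp90b1, chr10:86705528-86705556, − strand, 107 bases upstream, reversed: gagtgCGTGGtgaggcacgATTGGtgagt
Calr, chr8:84847070-84847098, − strand, 162 bases upstream, reversed: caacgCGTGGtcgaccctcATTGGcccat
Dnajc3, chr14:118937822-118937850, + strand, 105 bases upstream: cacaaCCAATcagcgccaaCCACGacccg

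Distances run from the RefSeq start to the first base of the motif. The Hspa5 match lies inside the GENCODE M21 bounds of the gene, which place its start further upstream, and the other matches lie outside the bounds of their genes. Windows of Pdia2, Pdia3, Pdia4, Xbp1, Atf4 and Ddit3 did not hold these letters. A second motif, the ATF4-type element TGATGNAA, was in none of the 10 windows and in 1304 of 32851 windows (3.97%). Sequence further upstream was not searched, so a gene without a match may carry either motif there. In 6 lists of other ER genes, 5 of 60 genes with a window held the ERSE (Canx, Creld2, Derl3, Pdia6 and Syvn1, named after their values were seen). A match describes the letters only.

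Sequencing depth differed widely between libraries. Total counts were 791491 to 2232039 per library, but 3 predicted genes (Gm10800, Gm10801 and Gm21738) took 37.4% to 93.0% of them. The counts outside these genes, called usable counts here, were 106497 to 1082423 in acetone, 159355 to 698588 in DNFB, 86345 to 217668 in PBS and 104801 to 614708 in caerulein libraries. Tissue identity matched the labels. On the scale of the acetone and PBS libraries, the summed level of 9 keratinocyte markers was 112 to 1459 normalized CPM (counts scaled to a common library depth) in acetone-treated epidermis and 1.61 to 9.27 CPM in PBS-treated pancreas, where Krt5, Krt1, Krt10 and Lor were at 0. The sum of 23 acinar markers was 2.71 to 25.7 CPM in that epidermis and 12102 to 155149 CPM in that pancreas. In the inflamed groups, each on the scale of its own tissue, keratinocyte markers summed to 218 to 2393 CPM and acinar markers to at most 81.4 CPM with DNFB, and to at most 15.8 CPM and 1379 to 15864 CPM with caerulein. Each comparison was put on its own scale, and CPM are compared within a comparison only.

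In the pancreas, caerulein-treated compared with PBS-treated libraries had 5 of the 10 genes above the filter on low counts. Of these, 1 passed the test, Pdia2, which fell by 2.51 on the log2 scale. The other 4, Hspa5, Hsp90b1, Calr and Dnajc3, had positive log2 fold changes of 0.99 to 2.30, and none passed. Among all 946 genes tested, 8.14% were called higher and 4.02% lower by edgeR's quasi-likelihood test at an adjusted p below 0.05. The median log2 fold change was 1.18 over the 5 genes and -0.00264 over all genes. The libraries are bulk tissue, in which fewer cells of a type and less RNA per cell cannot be told apart.

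Hspa5 (ENSMUSG00000026864, chromosome 2, 34771970 to 34777547, + strand) encodes BiP, the main ER chaperone and the regulator that holds the stress sensors inactive. Its levels were 21.96, 27.9, 3.97, 8.99 and 7.73 CPM in PBS libraries 7, 8, 15, 16 and 17. In caerulein libraries 9, 10, 18, 19 and 20 they were 10.9, 125, 19.5, 57.4 and 142 CPM. Libraries 10, 19 and 20 lay above all PBS libraries, while 9 and 18 lay within the PBS range. The means were 71.0 ± 60.1 with caerulein and 14.1 ± 10.3 with PBS (SD, n = 5 each), resting on 1611 and 59 counts. The log2 fold change was 2.30 (SE 0.78, edgeR adjusted p = 0.0590), which missed the threshold, as did an exact permutation test (two-sided unadjusted p = 0.0635, smallest possible 0.00794).

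Hsp90b1 (ENSMUSG00000020048, chromosome 10, 86690209 to 86705509, − strand) encodes GRP94, the ER paralog of HSP90. PBS libraries in the same order had 17.6, 21.8, 5.95, 16.2 and 12.4 CPM, and caerulein libraries had 8.48, 86.5, 22.6, 97.6 and 94.2 CPM. Here 4 caerulein libraries exceeded every PBS library and library 9 did not. Its log2 fold change was 2.05 (SE 0.71, edgeR adjusted p = 0.0646). Exons of Hsp90b1 overlap exons of 1810014B01Rik on the opposite strand. Reads from the shared stretch cannot be told apart, since the library kit does not mark strand. Exons of Gm15344 and Gm25745 on the same strand overlap those of Hsp90b1 too. The extent of these overlaps was not measured.

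Calr (ENSMUSG00000003814, chromosome 8, 84841850 to 84846934, − strand) encodes calreticulin, a calcium-binding lectin chaperone of glycoproteins. It was at 3.97 to 20.9 CPM in PBS and 8.48 to 37.9 CPM in caerulein libraries, so the groups overlapped, and its log2 fold change was 1.18 (SE 0.59, edgeR adjusted p = 0.189). Dnajc3 (ENSMUSG00000022136, chromosome 14, 118937976 to 118981697, + strand) encodes p58IPK, a co-chaperone of BiP. It ranged from 1.55 to 11.3 CPM in PBS libraries and from 0 to 18.4 CPM in caerulein libraries, with a log2 fold change of 0.99 (SE 0.69, edgeR adjusted p = 0.336). The library at 0 was caerulein 9.

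Pdia2 (ENSMUSG00000024184, chromosome 17, 26195999 to 26199087, − strand) encodes a protein disulfide isomerase known for its expression in the pancreas, and disulfide isomerases form and rearrange disulfide bonds in the ER. PBS libraries 7, 8, 15, 16 and 17 had 401, 156, 89.3, 52.2 and 72.6 CPM. Caerulein libraries 9, 10, 18, 19 and 20 had 30.3, 9.32, 63.9, 9.79 and 23.2 CPM. Only library 18 reached the PBS range, and the other 4 lay below every PBS library. The means were 27.3 ± 22.4 and 154 ± 143 CPM (SD, n = 5 each), and the log2 fold change was -2.51 (SE 0.77, edgeR adjusted p = 0.0384). On the same libraries, the exact permutation test gave an unadjusted p of 0.0159 (two-sided). The call was lost when any 1 of 7 libraries was left out (PBS 7, 15, 16 or 17, or caerulein 10, 19 or 20), with a highest adjusted p of 0.141 and a log2 fold change of -1.89 without PBS 7. It was also lost when every gene with a count entered the test (-2.07, adjusted p = 0.142) and when libraries were scaled by their totals alone (-1.10, adjusted p = 0.237).

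**Figure D1:**
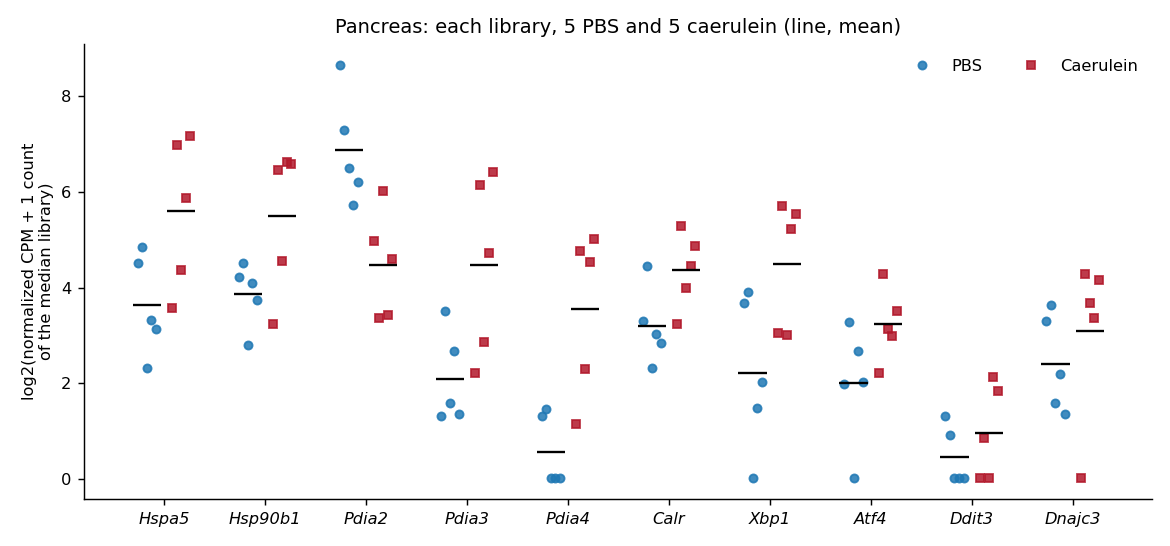
Levels of the 10 genes in each pancreas library, as log2 of normalized CPM plus 1 count of the median library, with 5 PBS libraries (circles) and 5 caerulein libraries (squares) per gene and a line at each group mean. Pdia2 sits highest in the PBS libraries and lower in 4 caerulein libraries, while for Hspa5, Hsp90b1, Pdia3, Pdia4 and Xbp1 the caerulein libraries divide into 3 high (10, 19 and 20) and 2 low (9 and 18).

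Pdia3, Pdia4, Xbp1, Atf4 and Ddit3 did not pass the filter in the pancreas and were compared one by one. Pdia3 (ENSMUSG00000027248, chromosome 2, 121413775 to 121438687, + strand) encodes ERp57, the disulfide isomerase that works with calreticulin on glycoproteins. PBS libraries had 1.46, 10.5, 1.98, 5.40 and 1.55 CPM and caerulein libraries 3.64, 69.6, 6.24, 25.5 and 83.8 CPM, from 18 and 887 counts. The exact permutation test gave an unadjusted p of 0.0476 (two-sided). Its exons overlap those of Catsper2 on the opposite strand, so reads from the shared stretch, whose extent was not measured, cannot be told apart.

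Pdia4 (ENSMUSG00000025823, chromosome 6, 47796141 to 47813430, − strand) encodes ERp72, another disulfide isomerase. The 5 PBS libraries together held 3 counts and were at 0 to 1.74 CPM. Caerulein libraries 9, 10, 18, 19 and 20 held 1, 131, 5, 86 and 160 counts, or 1.21, 26.0, 3.90, 22.1 and 31.5 CPM. The ratio of the pooled counts, each divided by the summed effective library size of its group (the TMM-scaled library totals behind the CPM), was 28.0, with a 95% interval of 9.52 to 136 that covers counting error only, and the exact permutation test gave an unadjusted p of 0.0238 (two-sided).

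Among the transcription factors, Xbp1 (ENSMUSG00000020484, chromosome 11, 5520659 to 5525893, + strand), the target of IRE1 and an activator of ER chaperone and degradation genes, was at 11.7, 13.9, 0, 1.80 and 3.09 CPM in PBS libraries. It was at 7.27, 51.0, 7.02, 36.1 and 45.4 CPM in caerulein libraries, 3 of which lay above all PBS libraries (exact permutation p = 0.0476, unadjusted). Atf4 (ENSMUSG00000042406, chromosome 15, 80255184 to 80257541, + strand), the effector of PERK, averaged 9.45 ± 5.58 CPM with caerulein and 4.03 ± 3.25 CPM with PBS (SD, n = 5 each, exact permutation p = 0.0794). Ddit3 (ENSMUSG00000025408, chromosome 10, 127290774 to 127296288, + strand) had 30 counts in caerulein and 2 in PBS libraries, a ratio per effective library size of 3.29 with a 95% counting interval of 0.835 to 28.4, and the exact permutation p was 0.444. A difference in Ddit3 was not detectable at this depth. Where its exons overlap those of Mars on the opposite strand, reads of both genes cannot be told apart.

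DESeq2, which filters genes differently, was run as an alternative and called 5 of the 10 genes higher and 1 lower, against 7.63% higher and 1.11% lower among the 8557 genes it tested. Those higher were Hspa5 (log2 fold change 2.85, adjusted p = 0.0202), Hsp90b1 (2.66, adjusted p = 0.0144), Pdia3 (3.70, adjusted p = 0.00849), Pdia4 (5.05, adjusted p = 0.00352) and Xbp1 (2.70, adjusted p = 0.0464), and Pdia2 was lower (-2.29, adjusted p = 0.0194). Calr, Dnajc3 and Atf4 did not pass, and Ddit3 was given no adjusted p. The Pdia4 fold rests on 3 counts in the PBS libraries.

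Caerulein libraries 9 and 18, which were low in these genes, were also the shallowest of their group, with 104801 and 156133 usable counts against 391337 to 614708 in libraries 10, 19 and 20. Ordering the 5 caerulein libraries by usable counts gave the same order as ordering them by Hspa5 level. The PBS libraries had a median of 106250 usable counts and the caerulein libraries 391337, so the treatment and the usable depth moved together. In an edgeR fit with log2 usable counts as a covariate, added after the data were seen, none of the 5 tested genes was called. Among all 946 genes, that fit called 6 higher and 11 lower. In that fit the log2 fold change was 0.27 for Hspa5 (SE 0.47, adjusted p = 0.892), 0.35 for Hsp90b1 (adjusted p = 0.835), 0.20 for Calr and -0.21 for Dnajc3. Pdia2 was at -2.48 (SE 0.73, adjusted p = 0.103). Without libraries 9 and 18, also a choice made after the data were seen, edgeR called 5 of the 10 genes higher (Hspa5, Hsp90b1, Pdia3, Pdia4 and Xbp1), against 18.1% of 4284 genes, and Pdia2 lower at -4.09 (adjusted p = 0.000598), against 11.6%. A comparison of 3 caerulein libraries that are all deeper than every PBS library cannot tell depth and treatment apart.

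**Figure D2:**
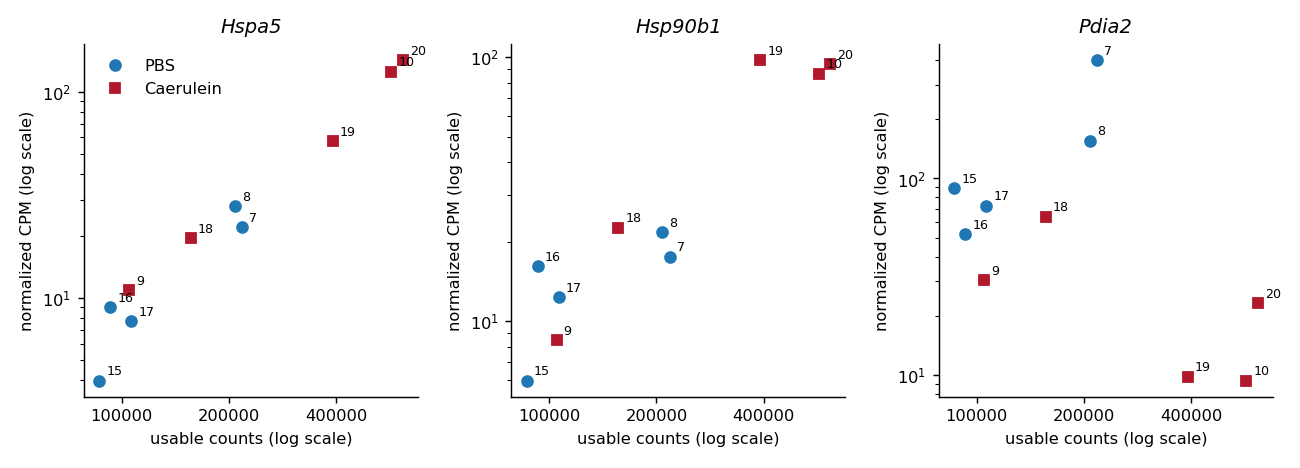
Normalized CPM of Hspa5, Hsp90b1 and Pdia2 against usable counts (both on log scales) in the 5 PBS libraries (circles) and 5 caerulein libraries (squares), with library numbers. Hspa5 and Hsp90b1 are highest in caerulein libraries 10, 19 and 20, which have 391337 to 614708 usable counts, and Pdia2 is lowest there.

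Cell type markers moved in the same comparison. Of 23 acinar markers 19 were tested, 15 were called lower and 0 higher, with a median log2 fold change of -3.20, and their summed level was 13495 to 138151 CPM (median 29832) in PBS and 1379 to 15864 CPM (median 2623) in caerulein libraries. Every acinar marker had counts in both groups. Library PBS 7 was the highest and caerulein 10 the lowest of the 10 in both Pdia2 and this sum. With the acinar marker genes left out of the fit, Pdia2 was at -2.57 (edgeR adjusted p = 0.0439). That fit keeps the same libraries and the same Pdia2 counts. It changes only the filter, the scaling and the adjustment, and cannot remove a difference in acinar content between libraries.

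Macrophage markers summed to 15.9 to 170 CPM in PBS and 93.3 to 1795 CPM in caerulein libraries, with 1 of 3 tested called higher. Fibroblast markers summed to 20.5 to 475 against 128 to 1107 CPM, with 1 of 4 tested called higher. Plasma cell markers, from a highly secretory cell type, summed to 41.7 to 156 against 54.5 to 1985 CPM. Of 3 tested, 1 was called higher, Ighm (3.63, edgeR adjusted p = 0.0200). The other tested markers went both ways, Igkc at 2.89 (adjusted p = 0.0507) and Derl3 at -1.45 (adjusted p = 0.140). The sum alone does not identify plasma cells. Of 9 duct markers 1 was tested and of 7 endocrine markers 2, without a call. Duct markers summed to 43.6 to 182 against 106 to 343 CPM. None of 5 neutrophil markers passed the filter, and they summed to 0 to 13.9 against 3.12 to 84.5 CPM, with S100a8 at 0 in the PBS libraries. The part of these cell types in the values of Hspa5, Hsp90b1, Pdia2 and the other genes was not tested.

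**Figure D3:**
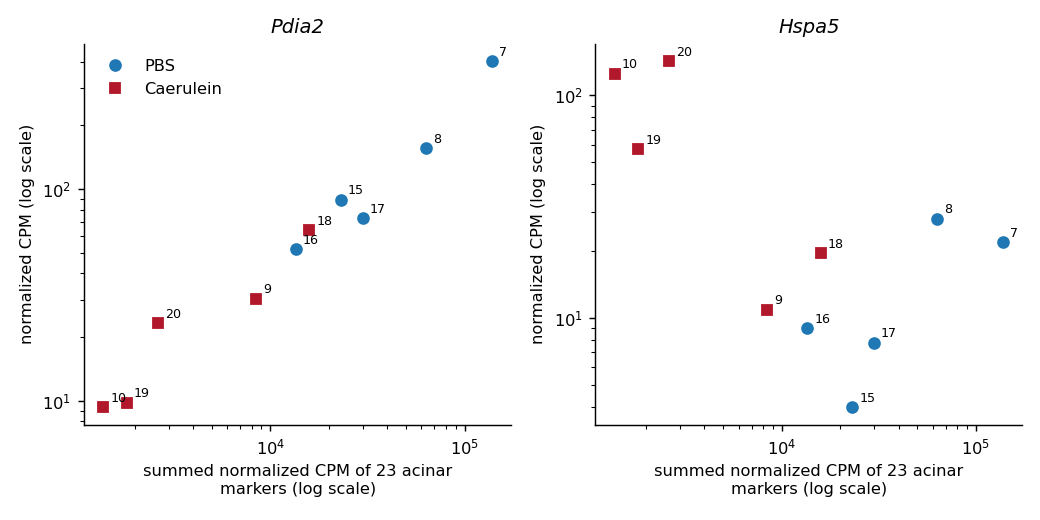
Normalized CPM of Pdia2 and Hspa5 against the summed CPM of 23 acinar markers (all on log scales) in the 5 PBS libraries (circles) and 5 caerulein libraries (squares), with library numbers. Pdia2 is lowest where the acinar sum is lowest, at 1379 to 2623 CPM in caerulein libraries 10, 19 and 20, the libraries in which Hspa5 is highest.

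Other genes of ER folding and quality control were followed through 6 lists of 77 genes, of which 19 passed the filter in the pancreas. By edgeR 0 were called higher or lower, at an unadjusted p below 0.05 there were 5 higher and 3 lower (163 and 114 among all 946 genes), and the median log2 fold change was 0.16. All 6 tested genes of the translocon and signal peptide processing list, which move nascent chains into the ER, had positive log2 fold changes (0.41 to 2.02). Chosen after their values were seen, Pdia6, a disulfide isomerase, had 2.04 (adjusted p = 0.0668) and Rpn1, a subunit of the oligosaccharyltransferase, had 1.69 (adjusted p = 0.0667). The ER-associated degradation list had 1 positive value among 5 tested. Of 13 targets of the PERK and ATF4 branch only 2 passed the filter, and both were negative (Nupr1 at -2.13, edgeR adjusted p = 0.0550, and Vldlr at -1.18). These 2 were also called higher in PBS pancreas than in acetone epidermis (below). A direction of the branch cannot be read from them. In the fit of all 20 libraries below, which compares the 2 treatments, 3 of 7 tested targets were positive. In the list of cytosolic heat shock genes, 1 of 4 tested was called, the constitutive chaperone Hspa8, which rose by 2.95 (SE 0.91, edgeR adjusted p = 0.0399). That call held in 3 of 10 fits with 1 library left out, and the value was 0.88 (adjusted p = 0.523) with log2 usable counts as a covariate.

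In the epidermis, DNFB-treated compared with acetone-treated libraries had 8 of the 10 genes above the filter, and edgeR called 0 of them, with 0 also at an unadjusted p below 0.05. DESeq2 called 0 of 9. All log2 fold changes lay between -0.68 and 0.55, with a median of -0.16 against 0.02 over all genes. Few genes of any kind were called in this comparison, 0.0275% higher and 0.0138% lower of 7265, with 214 higher and 208 lower at an unadjusted p below 0.05.

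Hspa5 was at 38.7, 116, 24.9, 142 and 119 CPM in acetone libraries 1, 2, 3, 11 and 12. In DNFB libraries 4, 5, 6, 13 and 14 it was at 66.1, 22.1, 94.9, 92.8 and 49.1 CPM. Acetone libraries 2, 11 and 12 lay above every DNFB library and the other 2 lay within the DNFB range, so the groups overlapped, and the log2 fold change was -0.44 (SE 0.62, edgeR adjusted p = 0.976). Hsp90b1 averaged 42.0 ± 21.9 CPM with DNFB and 57.4 ± 29.6 CPM with acetone (SD, n = 5 each), Calr 22.7 ± 15.6 and 20.1 ± 13.7 CPM, and neither difference exceeded the spread between libraries. Dnajc3 had the most negative value, -0.68 (SE 0.46, edgeR adjusted p = 0.945), with 5.10 to 15.7 CPM in DNFB and 8.90 to 31.2 CPM in acetone libraries.

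The disulfide isomerases Pdia3 and Pdia4 averaged 51.4 ± 31.1 and 18.4 ± 8.50 CPM with DNFB against 51.1 ± 48.4 and 17.7 ± 12.6 CPM with acetone (SD, n = 5 each). Pdia3 spanned 3.22 to 105 CPM within the acetone group alone, with libraries 11 and 12 the high pair. Pdia2 had 1 count in DNFB and 3 counts in acetone libraries, too few for a fold change. Xbp1 was at 18.5 ± 8.39 against 21.4 ± 13.2 CPM. Atf4 had the most positive log2 fold change of the set, 0.55 (SE 0.53, edgeR adjusted p = 0.965), with 11.9 to 47.0 CPM in DNFB and 5.68 to 32.6 CPM in acetone libraries. Ddit3 rested on 30 and 47 counts and did not pass the filter (exact permutation p = 0.659, two-sided).

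Acetone libraries 11 and 12 were the deepest of the series, with 1082423 and 948955 usable counts, and held most of the acetone counts of these genes. Without them the log2 fold changes of Hspa5, Hsp90b1, Pdia3, Pdia4 and Xbp1 turned positive, at 0.27, 0.12, 1.77, 1.22 and 0.79, and none was called (adjusted p = 0.505 for Pdia3). Leaving out library 11 alone turned Pdia3 and Pdia4 positive (0.45 and 0.28), and leaving out library 12 alone turned Pdia3, Pdia4 and Xbp1 positive (0.30, 0.21 and 0.032). Libraries 11 and 12 also stood apart in macrophage markers, which summed to 693 and 1011 CPM there and to 32.0 to 96.5 CPM in acetone libraries 1, 2 and 3, against 41.7 to 370 CPM in DNFB libraries. Plasma cell markers summed to 180.1 and 197 CPM in libraries 11 and 12, to 21.4 to 68.1 CPM in the other acetone libraries and to 32.3 to 332 CPM in DNFB libraries. Of these 8 markers only 1, Sdc1, was tested in epidermis, and Igkc was at 0 in both epidermal groups. The sum alone does not identify plasma cells here. Of the 77 other ER genes, 54 were tested, 0 were called in either direction by edgeR (0 higher and 2 lower at an unadjusted p below 0.05), and the median was -0.07. Neutrophil markers summed to 25.0 to 750 CPM in DNFB and 1.56 to 12.9 CPM in acetone libraries. Of these 5 markers 2 were tested, S100a8 (6.20, edgeR adjusted p = 0.0460) and S100a9 (7.15, adjusted p = 0.0555), and S100a8 was called higher. The rest of that list was below the filter, and the sum does not identify the cells that express S100a8 and S100a9. Fibroblast markers summed to 110 to 187 against 139 to 639 CPM, with none called. The part of any cell type in the values of the 10 genes was not tested. The genes closest to Hspa5 among 7265 were Son, Esrp1, Hsp90b1, Crip2 and Chmp6, by Pearson r of log2 CPM (0.965 to 0.982) over the 10 epidermal libraries, which share a treatment contrast and a depth range.

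**Figure D4:**
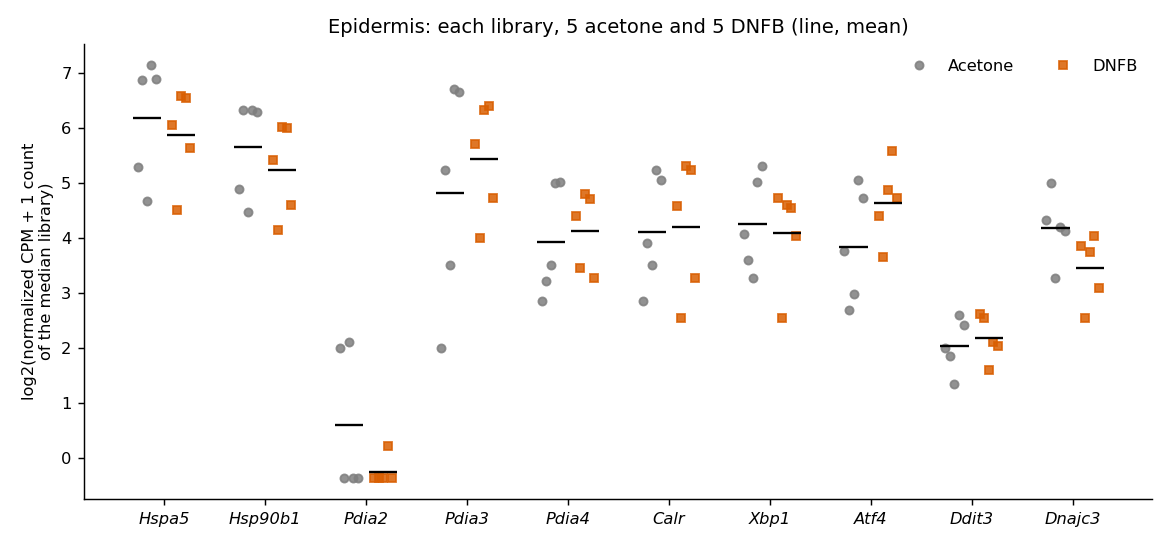
Levels of the 10 genes in each epidermal library, as log2 of normalized CPM plus 1 count of the median library, with 5 acetone libraries (circles) and 5 DNFB libraries (squares) per gene and a line at each group mean. The groups overlap for all 10 genes, and Pdia2 is at or near 0 in both.

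The uninflamed tissues were compared next, with the PBS and acetone libraries already used above. Pdia2 was the 1 gene of 3 tested that was called, higher in pancreas, beside 13.2% of 736 genes called higher and 12% lower. It had 451, 189, 83.4, 46.8 and 71.6 CPM in PBS libraries 7, 8, 15, 16 and 17 and 0 to 1.83 CPM in the acetone libraries, so the groups did not overlap. The log2 fold change was 8.62 (SE 1.40, edgeR adjusted p = 4.8e-05), the ratio of pooled counts per effective library size was 983 with a 95% counting interval of 335 to 4782 (3 counts in acetone), and the call held in each of 10 fits with 1 library left out.

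Hspa5 and Hsp90b1 had negative log2 fold changes of -1.58 (SE 0.78, edgeR adjusted p = 0.146) and -0.94 (SE 0.65, adjusted p = 0.289). Pdia4, below the filter, had 3 counts in PBS and 289 in acetone libraries, or 0 to 2.11 against 3.08 to 19.97 CPM without overlap, a ratio per effective library size of 0.0533 (95% counting interval 0.0109 to 0.157) and the smallest exact permutation p that 5 against 5 libraries allow, 0.00794. Acetone libraries 1, 2, 3, 11 and 12 held 2, 3, 6, 160 and 118 of the 289 counts. The pooled ratio thus rests largely on libraries 11 and 12, the deepest of the series. Libraries 1, 2 and 3 were at 3.67, 3.08 and 5.19 CPM. How many of all genes did not overlap between the tissues was not counted. Pdia3, Calr, Xbp1, Atf4, Ddit3 and Dnajc3 overlapped between the tissues, with exact permutation p of 0.0556 to 0.968. Of the other ER genes 9 were tested, 3 were called higher in pancreas (Edem1 of ER-associated degradation at 2.14, adjusted p = 0.0111, and the PERK and ATF4 targets Vldlr at 2.19, adjusted p = 0.0246, and Nupr1 at 3.86, adjusted p = 0.0030) and 1 lower, the translocon-associated Ssr1 (-1.80, adjusted p = 0.0452). With 1 library left out, the calls of Edem1 and Nupr1 held in 10 of 10 fits and that of Vldlr in 8, while that of Ssr1 held in 1, with values from -2.03 to -1.03 and an adjusted p of up to 0.326. The median log2 fold change of all genes moved from 0.04 to -2.29 when libraries were scaled by totals alone, and Edem1 and Vldlr then turned negative.

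A fit of all 20 libraries compared the caerulein effect with the DNFB effect directly, as their difference. By edgeR 0 of 9 tested genes passed, beside 0.216% of 8336 genes called higher with caerulein than with DNFB and 0.0480% called lower. At an unadjusted p below 0.05, 5 of the 9 were higher (Pdia3, Pdia4 and Xbp1 among them), beside 1014 higher and 527 lower of 8336. DESeq2 called 1, Pdia4, beside 585 higher and 266 lower of 16530. Pdia4 had the largest difference of log2 fold changes, 4.15 (SE 1.13, edgeR adjusted p = 0.0691), followed by Pdia3 at 2.78 (SE 1.16, adjusted p = 0.198), Hspa5 at 2.40 (SE 1.003, adjusted p = 0.198), Hsp90b1 at 2.25 (SE 0.91, adjusted p = 0.187) and Xbp1 at 2.10 (SE 0.99, adjusted p = 0.253). Pdia4 passed in 4 of 20 fits with 1 library left out. Its value rests on 3 PBS counts, and Pdia3, Pdia4 and Xbp1 were below the filter in the pancreas comparison. In the pancreas, treatment and usable depth moved together, and in the epidermis several signs depended on acetone libraries 11 and 12. These differences carry both limits. Of the 9 genes, 0 were called with log2 usable counts as a covariate, beside 12 higher and 12 lower of 8336. Without acetone 11 and 12, 0 of the 9 were called, and 0 of all 9385 genes tested. For Pdia2, nearly absent from epidermis, the SE was 4.73, too wide to read a difference. The median over the 9 genes was 2.10, which is the Xbp1 value, and that over all genes 0.38. Pdia3, Pdia4 and Xbp1, below the filter in the pancreas, are among the 9, so these medians describe and do not test. Among the other ER genes, 1 of 61 tested was called, Ppp1r15a (5.16, adjusted p = 0.0418), which encodes the phosphatase subunit GADD34 that restores translation after PERK signaling, and that call held in 5 of 20 fits with 1 library left out. Its value ranged from 4.78 to 9.30 over these fits, the highest without PBS 8.

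**Figure D5:**
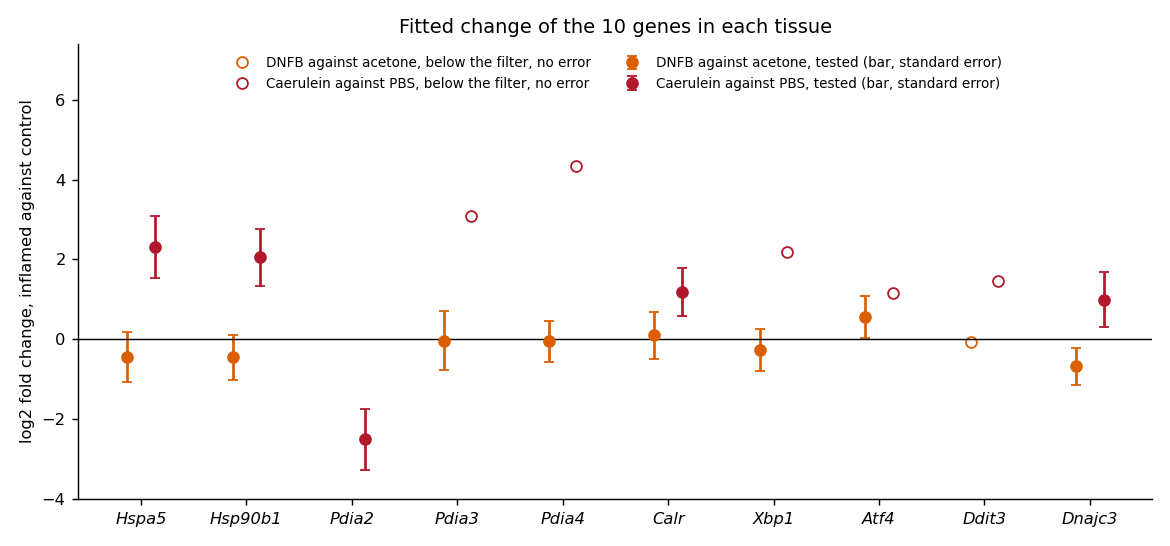
Log2 fold changes of the 10 genes for DNFB against acetone (orange) and caerulein against PBS (red), with filled points and standard error bars for genes that passed the filter and open points, without error, for fitted values below it. The open point of Pdia4 rests on 3 PBS counts and that of Ddit3 on 2, and Pdia2 in epidermis is not drawn. Hspa5 is at 2.30 in pancreas and -0.44 in epidermis, with neither value called.

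Levels were then set side by side between genes, as normalized CPM per kilobase of exon on a scale shared by the 20 libraries. Pdia2 was the highest of the 10 genes in PBS-treated pancreas, at 153 ± 149, and was at 26.2 ± 24.9 with caerulein, 0.482 with acetone and 0.0271 with DNFB (mean ± SD where given, n = 5 per group). Within PBS-treated pancreas the next levels were 6.15 for Hsp90b1, 5.89 for Hspa5 and 5.75 for Calr, which did not differ beyond their spread, and Pdia4 and Ddit3 were lowest at 0.508 and 0.503. In caerulein-treated pancreas Hspa5 (25.1 ± 19.8), Hsp90b1 (23.5 ± 15.7) and Pdia3 (17.8 ± 16.5) stood near Pdia2. In both epidermal groups Hspa5 and Pdia3 led, at 11.9 and 9.23 with acetone and 9.54 and 10.2 with DNFB, and the transcription factors Xbp1 and Atf4 lay between 3.54 and 6.96. Ddit3 had group means of 1.19 ± 0.450 with acetone, 1.41 ± 0.460 with DNFB and 1.18 ± 1.38 with caerulein, from 47, 30 and 30 counts.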

How the data were processed

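RNA of epidermis and pancreas was made into Smart-Seq2 libraries without molecular identifiers, and the authors mapped the reads to GRCm38 with STAR 2.5.3 and quantified them with RSEM 1.3.1 (DESeq2 1.24.0 is also named in the submitters' processing notes; the annotation release is not given in the sources used here). The deposited values are the authors' expected counts per gene, 94.71% of them whole, and were rounded to whole numbers here. Symbols and exon lengths came from GENCODE M21, which named 55144 of 55471 genes.

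Each comparison was fitted in R 4.3.3 with edgeR 4.0.16 on its own 10 libraries (the interaction on all 20), with filterByExpr at a minimum count of 10, TMM scaling, the quasi-likelihood test and Benjamini-Hochberg adjustment over all genes tested. CPM are on the TMM scale of each comparison. For genes below the filter, an exact permutation test (two-sided, unadjusted) used log2 of CPM plus 1 count of the median library. It was also run for genes above the filter. In the pancreas it gave p of 0.0635 for Hspa5, 0.0873 for Hsp90b1, 0.0159 for Pdia2, 0.0714 for Calr and 0.460 for Dnajc3. It uses the same libraries as edgeR and is no independent evidence. Pooled count ratios are per summed TMM effective library size and carry exact intervals. DESeq2 1.42.0, other scalings and filters, covariates and left-out libraries were alternatives. Tested on simulated data with 200 genes changed by a log2 fold of 3, edgeR recovered 81% among the 946 genes of the pancreas comparison, 67.5% among the 7265 genes of the epidermis comparison and 48.5% among the 736 genes of the PBS against acetone comparison, with 2, 5 and 11 false calls. DESeq2 recovered 97%, 94% and 96.5%, with 9, 12 and 5 false calls. In the simulation all genes shared 1 dispersion, rises and falls were balanced, and no gene followed the usable depth. It checks that the code runs as meant and does not measure power or false calls in these data.

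The 10 genes, the gene lists and the tests were chosen with earlier results of these data known. Genes outside the 10 were named where they passed the adjusted threshold, at most 4 per list and direction, or as the 5 most like Hspa5 in epidermis (likeness in pancreas is not reported here); exceptions are marked. Labels do not say whether libraries came from separate mice, so p-values measure only the spread between libraries. Intervals cover counting error only.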

Additional observations from a re-analysis of the deposited data

Results flagged for a closer look

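Of 40 groups of 5 libraries (10 genes in 4 groups), 2 held a library whose gap to the nearest other exceeded 0.71 of the range, Dixon's critical value for 5, and chance gives about 1 in 20 such groups. Dnajc3 in caerulein library 9 was at 0 CPM, where the other 4 caerulein libraries were at 9.27 to 18.4 CPM (ratio 0.784). This was the caerulein library with the fewest usable counts, 104801, and without it Dnajc3 remained below the threshold. Pdia2 in DNFB library 13 was at 0.392 CPM, which is 1 count, and was at 0 in the other DNFB libraries (ratio 1).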

How the results depend on the processing

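No paired analysis was possible because the labels number the libraries through from 1 to 20 and no number occurs in more than 1 group. Genes called in the pancreas (10 followed; all) numbered 1 and 115, and became 4 and 572 with library totals, 3 and 131 with DESeq2 size factors, 5 and 1297 with every gene that had a count, 6 and 748 by DESeq2, 0 and 17 with log2 usable counts as a covariate, 6 and 1274 without caerulein 9 and 18, and 0 to 4 and 14 to 280 with 1 library left out (4 without caerulein 9, 0 without PBS 7). With the label number (1 to 10 or 11 to 20) as a covariate the count stayed at 1 but the gene was Hspa5 (adjusted p = 0.0475) in place of Pdia2 (0.0846). The called genes were 67.0% higher in the report and 96.9% higher with library totals, where the median of all genes moved to 1.86. Dnajc3 turned to -0.21 with the usable-count covariate.

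In the epidermis 0 of the 10 genes was called in any alternative. All genes called numbered 3, and 0 with library totals, 5 without the 3 predicted genes, 108 with every gene, 78 by DESeq2, 12 with the label number, 1 without acetone 11 and 12, 81 with usable counts and 0 to 34 with 1 library left out. Signs turned for Calr (-0.19 with totals, -0.10 with every gene, -0.19 to 0.48 with 1 library left out), Pdia3 and Pdia4 (0.061 and 0.020 without the predicted genes, 0.51 and 0.21 with the label number, 0.13 and 0.10 with usable counts, -0.33 to 0.45 and -0.25 to 0.28 with 1 library left out), Xbp1 (-0.47 to 0.032 with 1 left out) and, without acetone 11 and 12, Hspa5 (0.27), Hsp90b1 (0.12), Pdia3 (1.77), Pdia4 (1.22) and Xbp1 (0.79).

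Between the uninflamed tissues, 1 of the 10 and 185 genes became 3 and 420 with totals, 3 and 1202 with every gene, 3 and 1270 by DESeq2 (Pdia3 and Pdia4 lower in pancreas in the last pair), 92 genes without acetone 11 and 12, and 1 to 3 and 121 to 459 with 1 library left out; Edem1 and Vldlr turned to -0.38 and -0.20 with totals. For the interaction, 0 and 22 became 0 genes with totals, 37 with size factors, 39 without the predicted genes, 2 of the 10 and 1009 with every gene (Pdia3 and Pdia4), 1 and 851 by DESeq2 (Pdia4), 0 genes without acetone 11 and 12, and 0 to 1 and 0 to 615 with 1 left out. Its signs turned for Pdia2 (0.12 with totals, 0.65 without acetone 11 and 12, -2.38 to 0.19 with 1 left out), Calr (-0.17 and -0.13) and Atf4 (-0.66 and -0.58; both without acetone 11 and 12, then with usable counts). The cause of these shifts was not tested. Of 14 exact tests below the filter, 4 had p under 0.05, and 4 and 3 with 0.5 and 3 counts added. In the pancreas, Pdia4 and Ddit3 rested on 3 and 2 PBS counts.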
